A study of Mus musculus with 4 samples.

Results

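The natriuretic peptide system was described over 10 genes: the hormone genes Nppa, Nppb and Nppc, the receptor genes Npr1, Npr2 and Npr3, and Corin, Furin, Pam and Mme, whose products process, package or degrade the hormones. They were chosen by name, and each had 1 probe set among the 18781 named genes of the table. Expression was measured on 4 arrays, 1 for each group: Mef2a knockout atria (Mef2a-/-), wild type atria (Mef2a+/+), Mef2a knockout ventricles and wild type ventricles. Each array carried RNA pooled from the dissected chambers of 7 mice at 2 months of age, with males and females mixed. The sources used here do not give the strain, the deleted part of Mef2a or how many mice of each sex a pool held. With 1 array a group there was no replicate error and no test, so every difference below describes these pools, and their number limits its precision.

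The heart is an endocrine organ through these genes. Cardiomyocytes make atrial natriuretic peptide (ANP, from Nppa) and brain natriuretic peptide (BNP, from Nppb), which are released when the heart wall is stretched, and both hormones act through the receptor encoded by Npr1, a guanylyl cyclase of the cell membrane that makes the messenger cGMP, to promote salt excretion and relax blood vessels. C-type natriuretic peptide (CNP, from Nppc) acts mainly through the related receptor encoded by Npr2, and the receptor encoded by Npr3 takes up and clears all these peptides. Corin cleaves the ANP precursor and furin the BNP precursor, Pam encodes a peptide-amidating enzyme that is also a membrane protein of atrial secretory granules, and Mme encodes neprilysin, a protease that degrades the hormones.

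Nppa and Nppb lie next to each other on chromosome 4, on the same strand, and are known targets of the cardiac transcription factors GATA4, NKX2-5 and TBX5. Their windows of 250 bases before the transcription start, from RefSeq sequences of build GRCm38.p6, are shown because the 2 neighbours gave different genotype ratios. The Nppa window is chr4:148000472-148000721 and the Nppb window chr4:147985650-147985899, both on the plus strand. Capitals mark matches on either strand to GATAA (GATA factors), TNAAGTG (NKX2-5), GGTGTGA (T-box factors), CATTCC (the M-CAT element of TEAD factors) and TATAAA (the TATA box), and no matches of different motifs overlap.
Nppa: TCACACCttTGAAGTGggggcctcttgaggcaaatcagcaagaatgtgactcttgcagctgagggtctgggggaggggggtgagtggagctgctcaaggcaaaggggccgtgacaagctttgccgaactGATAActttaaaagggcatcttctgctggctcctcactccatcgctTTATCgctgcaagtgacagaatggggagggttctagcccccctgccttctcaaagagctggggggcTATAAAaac
Nppb: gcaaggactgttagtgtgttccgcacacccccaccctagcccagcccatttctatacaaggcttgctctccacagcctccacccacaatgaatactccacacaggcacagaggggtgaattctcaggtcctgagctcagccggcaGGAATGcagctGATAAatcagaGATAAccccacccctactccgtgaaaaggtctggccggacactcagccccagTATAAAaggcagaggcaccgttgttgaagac

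The Nppa window held GATAA 2 times, ending 117 and 71 bases before the start, with TNAAGTG and GGTGTGA side by side at its upstream end and TATAAA at its downstream end. The Nppb window held GATAA 2 times, ending 90 and 79 bases before the start, with CATTCC just upstream of them, ending 100 bases before the start, and TATAAA ending 26 bases before it. Of 32851 mouse promoter windows of the same length, 22.6% held GATAA, 10.1% TNAAGTG, 3.33% GGTGTGA, 12.6% CATTCC and 12.4% TATAAA. Neither window matched the MEF2 consensus, which was present in 2.92% of windows, or the CArG box bound by serum response factor, present in 1.47%. All 10 genes had at least 1 window, 14 in all, and 0 of them held either of these 2 motifs. Near matches were not searched for, so a site differing from a motif by a letter would be missed. The RefSeq gene record of Nppb begins 114 bases upstream of the start used for its window. A match describes letters in a window only, and these coordinates belong to the sequence table, since the sources used here name no build for the array.

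A ratio is given below as the difference of 2 log2 intensities. A gene was tested in a comparison when its brighter array reached a floor of 5.71, the median log2 intensity over every probe set and array. It was called when it also reached 1.5-fold between genotypes (0.585 on the log2 scale) or 2-fold between chambers. Array medians ran from 5.66 to 5.75. Values were more compressed on the knockout atria array, with an interquartile range of 2.97 against 3.18 to 3.21 elsewhere. Mef2a itself stood at 10.41 in knockout atria, 10.32 in wild type atria, 10.34 in knockout ventricles and 10.28 in wild type ventricles, so the signal was not lower in the pools labelled knockout and does not check that label. Chamber markers, chosen with earlier results of these data known, followed the chamber labels. In both genotypes 8 of 8 atrial cardiomyocyte genes passed 2-fold towards atria, with median log2 ratios of 5.94 in knockouts and 5.96 in wild types. Only 4 of these 8 reached the floor in ventricles, so the medians rest partly on values below it. Of the ventricular genes, 7 of 7 had negative ratios in both genotypes, with 5 reaching the floor in atria.

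**Figure D1:**
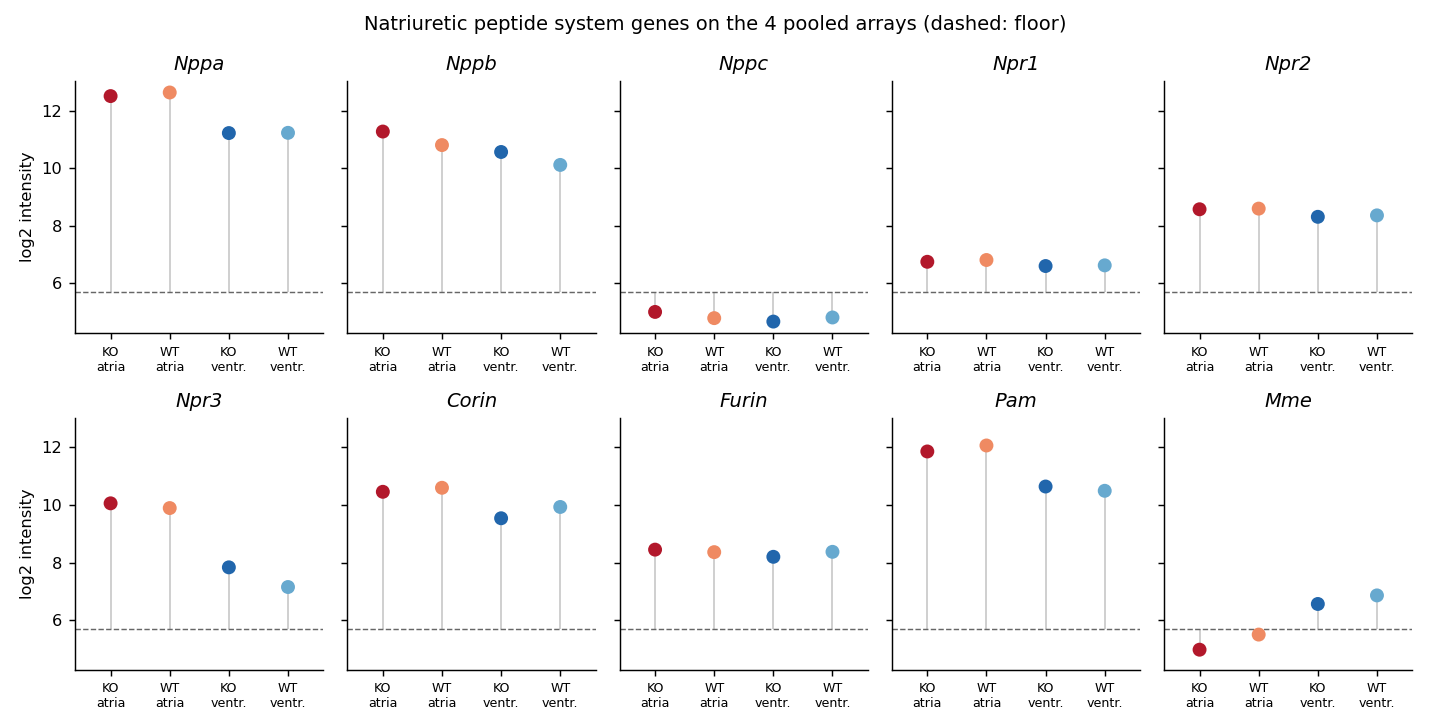
Log2 intensity of each of the 10 genes on the 4 pooled arrays (1 point an array, KO knockout, WT wild type), with the floor of 5.71 dashed. Nppa, Npr3 and Pam stand higher on both atrial arrays, Mme stands higher on both ventricular arrays, Nppb stands higher on the knockout array of each chamber, and Nppc lies below the floor on all 4.

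Among the hormone genes, Nppb differed between genotypes by nearly the same amount in both chambers and Nppa did not reach that size in either. Nppb had a log2 intensity of 11.27 in knockout atria and 10.80 in wild type atria, and of 10.56 in knockout ventricles and 10.11 in wild type ventricles. In each chamber the knockout array was the higher one. The log2 ratios were 0.47 in atria (1.38-fold) and 0.45 in ventricles (1.36-fold), below the 1.5-fold threshold in both. Set among all genes tested, 2.28% in atria and 1.19% in ventricles had a ratio at least as high.

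Nppa stood at 12.50 in knockout atria and 12.63 in wild type atria, and at 11.22 in knockout ventricles and 11.23 in wild type ventricles. Its log2 genotype ratios were −0.12 in atria and −0.01 in ventricles, the second turning to 0.02 under median centring and 0.01 under quantile normalization. On the wild type atria array Nppa was the brightest of all 21212 probe sets and on the knockout atria array it ranked 2, against ranks of 102 and 103 on the knockout and wild type ventricular arrays. Subtracting the ratio of Nppa from that of Nppb gave a difference of 0.46 in ventricles. The 2 neighbouring genes thus had unequal ratios on the ventricular arrays, with no replicate error to set beside the difference. The same difference was 0.59 in atria, where Nppa lay at the top end of the signal. Whether the Nppa signal was still proportional to its RNA was not tested in either chamber. Nppc lay below the floor on all 4 arrays, with 5.01 in knockout atria, 4.80 in wild type atria, 4.68 in knockout ventricles and 4.82 in wild type ventricles, and was not counted in any comparison.

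The receptor genes parted by type. Npr3, encoding the clearance receptor, stood at 10.05 in knockout atria, 9.89 in wild type atria, 7.83 in knockout ventricles and 7.15 in wild type ventricles. Both atrial arrays lay above both ventricular arrays, and in each chamber the knockout array was the higher one. The genotype log2 ratio was 0.68 in ventricles (1.60-fold), past the threshold, and 0.16 in atria (1.12-fold), within it. In ventricles 0.35% of genes tested had a ratio as high, and in atria 16.7%.

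The cyclase receptor genes differed little between any arrays. Npr1, encoding the receptor of ANP and BNP, stood at 6.75 in knockout atria, 6.81 in wild type atria, 6.61 in knockout ventricles and 6.63 in wild type ventricles, a range of 0.21. Npr2, encoding the receptor of CNP, stood at 8.57 in knockout atria, 8.60 in wild type atria, 8.31 in knockout ventricles and 8.36 in wild type ventricles, a range of 0.28. Genotype ratios of the pair were −0.06 and −0.02 in atria, where quantile normalization turned both signs and lowess centring that of Npr2, and −0.02 and −0.05 in ventricles, where median centring turned that of Npr1 to 0.00.

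Among the enzyme genes tested, Corin had the largest genotype ratio, in ventricles. Corin, encoding the membrane protease that activates ANP, stood at 10.45 in knockout atria, 10.59 in wild type atria, 9.54 in knockout ventricles and 9.93 in wild type ventricles. In each chamber the knockout array was the lower one. The log2 ratio was −0.39 in ventricles (1.31-fold lower), where 1.65% of genes tested were as low, and −0.14 in atria, where 30.7% were. Neither passed 1.5-fold.

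Mme stood at 4.98 in knockout atria and 5.50 in wild type atria, both below the floor, and at 6.56 in knockout ventricles and 6.86 in wild type ventricles. Its log2 ratio was −0.30 in ventricles, with 3.31% of genes tested as low, and the atrial difference of −0.52 was not tested because RMA compresses values near background. The values of Pam were 11.85 in knockout atria, 12.06 in wild type atria, 10.64 in knockout ventricles and 10.49 in wild type ventricles, with genotype ratios of −0.21 and 0.15. Furin, the precursor convertase, stood at 8.45 in knockout atria, 8.36 in wild type atria, 8.20 in knockout ventricles and 8.37 in wild type ventricles, with ratios of 0.09 and −0.17.

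Counted together, 0 of 8 genes tested in atria passed 1.5-fold in either direction, where 3.03% of all 10050 genes tested did (1.02% higher, 2.01% lower). In ventricles 1 of 9 passed, Npr3, where 1.2% of all 9712 genes tested did (0.515% higher, 0.69% lower). The median log2 ratio of the tested genes was −0.04 in atria, against −0.03 over all genes tested, and −0.02 in ventricles, against 0.00. Both medians lay near that of all genes, while Nppb in both chambers and Npr3 and Corin in ventricles lay outside the range that holds the central 95% of genes.

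**Figure D2:**
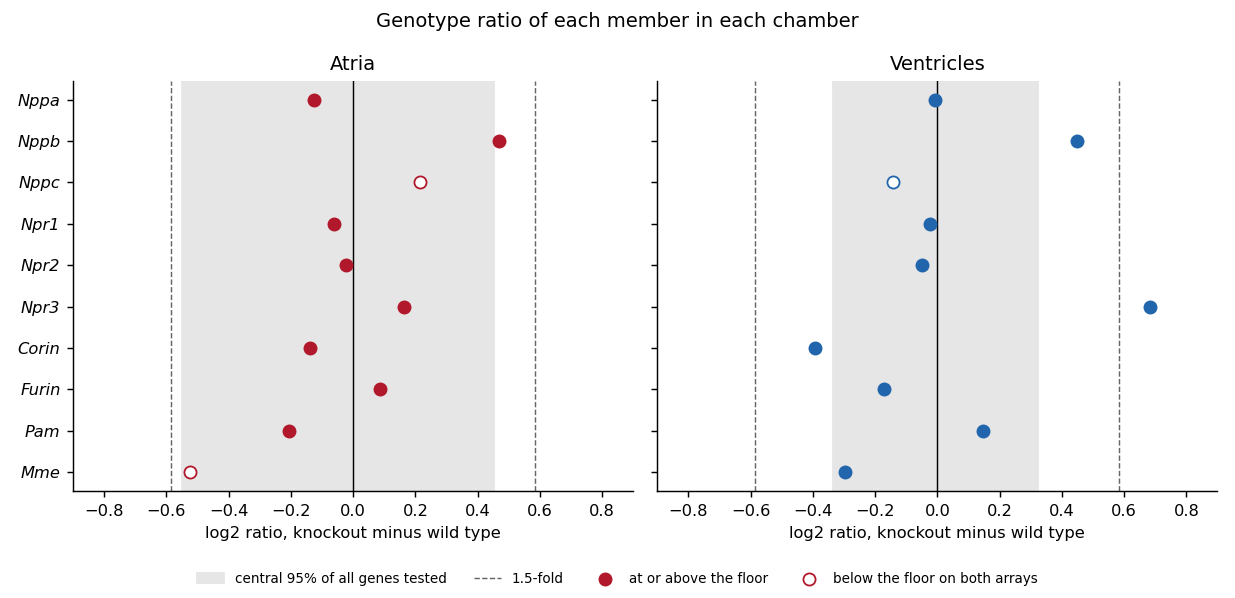
Log2 ratio of knockout minus wild type for each gene in atria (left) and ventricles (right), 1 pooled array a group. Grey marks the central 95% of all genes tested, dashed lines 1.5-fold, and open points genes below the floor on both arrays. In ventricles Nppb (0.45), Npr3 (0.68) and Corin (−0.39) lie outside the grey range, and in atria Nppb (0.47) lies just above it.

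The difference between chambers in the knockout ratio, atria minus ventricles, was largest for Npr3 at −0.52, and 3.77% of the 9436 genes tested in both chambers had a difference as large. For Nppb it was 0.02, with 92.0% of genes at least as large and the sign turned under median centring. Corin gave 0.25, Furin 0.26, Pam −0.36, Nppa −0.12, Npr2 0.03 and Npr1 −0.04, the signs of the last pair turning under 1 scaling each. Mme and Nppc were not among the genes tested in both chambers. None of these differences could be set against an error. Since each is built from the same 4 values as the chamber ratios, it equals the difference of the chamber ratio between genotypes.

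Atria against ventricles separated the genes more than genotype did. In both genotypes 4 of 9 genes tested passed 2-fold, with Npr3, Pam and Nppa higher in atria and Mme lower. Of all genes tested, 6.3% passed in knockouts (3.46% higher, 2.85% lower) and 6.1% in wild types (3.89% higher, 2.21% lower). The 2 chamber comparisons share no array, but each shares 1 with each genotype comparison.

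Npr3 had the largest chamber ratio, 2.22 in knockouts (4.66-fold) and 2.74 in wild types (6.68-fold). Pam stood at 1.22 in knockouts (2.32-fold) and 1.57 in wild types (2.97-fold), and Nppa at 1.28 (2.43-fold) and 1.40 (2.64-fold), so that Nppa was above Pam in knockouts and below it in wild types. Mme was lower in atria at −1.59 in knockouts and −1.36 in wild types, with both atrial values below the floor. Corin, at 0.92 in knockouts and 0.67 in wild types, and Nppb, at 0.71 and 0.69, were higher in atria without reaching 2-fold, although Corin reached it in knockouts at 1.05 under quantile normalization and 1.06 under lowess centring. The receptor genes Npr1 (0.15 in knockouts, 0.19 in wild types) and Npr2 (0.26 and 0.23) and the protease gene Furin (0.25 and −0.01) stayed close to 0. Of the 6 genes with a range of at least 1 log2 unit over the 4 arrays, 5 had both atrial values above both ventricular ones, and Mme had the reverse order.

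**Figure D3:**
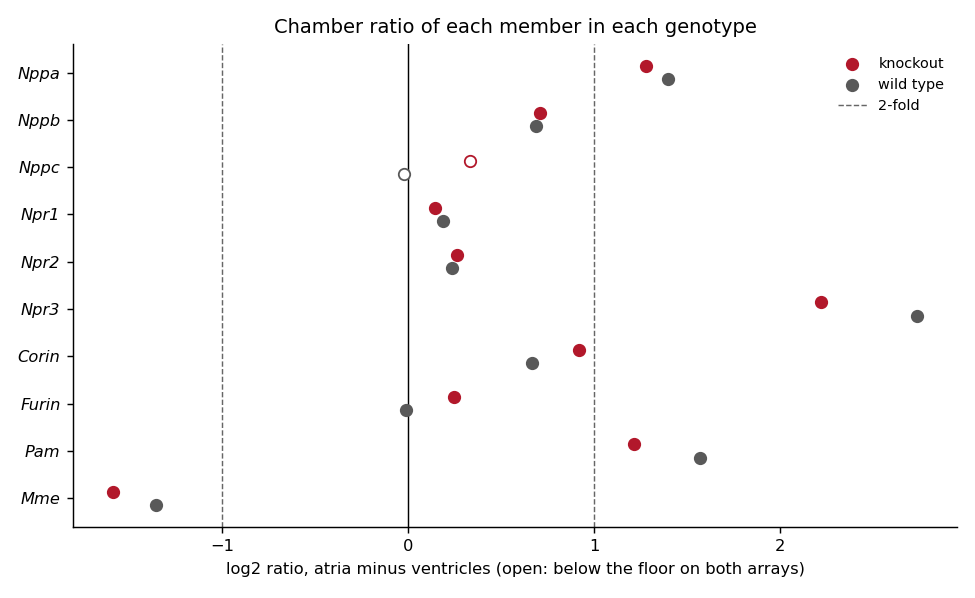
Log2 ratio of atria minus ventricles for each gene in knockouts and wild types, 1 pooled array a group, with 2-fold dashed and genes below the floor on both arrays open. Npr3, Pam and Nppa lie right of the upper line and Mme left of the lower line in both genotypes, while Npr1, Npr2 and Furin lie near 0.

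Npr3 is known as a marker of the endocardium, the lining of the heart chambers, so endocardial genes were set beside it. In these bulk tissue pools, fewer cells of a type and less RNA per cell cannot be told apart. Of 8 endocardial markers, Hapln1 lay below the floor on all 4 arrays, and of the other 7 tested, 5 were at least 2-fold higher in knockout atria than knockout ventricles and 4 in wild type atria than wild type ventricles, with 0 lower. Their median chamber ratio was 1.88 in knockouts and 1.73 in wild types. Only 5 of the 7 reached the floor in ventricles. The others, Tmem108 among them, were tested between chambers through their atrial values alone. The log2 of their summed intensity was 11.28 in knockout atria, 11.25 in wild type atria, 9.51 in knockout ventricles and 9.44 in wild type ventricles. Other lists were higher in atria too. Epicardial markers had medians of 2.08 in knockouts and 2.40 in wild types, with 6 of 7 past 2-fold in each. Only 3 of these 7 reached the floor in ventricles, and the others were tested through their atrial values alone. Fibroblast markers had medians of 0.51 and 0.71, with 9 of 9 positive in each. Of the pan-endothelial markers 0 of 10 passed 2-fold, and smooth muscle and pericyte markers had medians of −0.49 and −0.41.

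Between genotypes, the endocardial markers tested in ventricles had lower ratios than the 0.68 of Npr3. In ventricles 0 of 5 tested passed 1.5-fold, with a median of 0.16, 4 positive and Plvap highest at 0.25. Of 10 pan-endothelial markers 0 passed, with a ventricular median of 0.035 and 0.12 in atria. The median of 8 general cardiomyocyte markers was −0.02 in ventricles, turning to 0.01 under median centring, and −0.06 in atria. Fibroblast markers were lower on the knockout arrays in 9 of 9 genes in both chambers, with medians of −0.37 in atria, where 3 passed 1.5-fold, and −0.16 in ventricles, where 0 passed. Their summed intensity was 12.72 in knockout atria against 13.13 in wild type atria, and 12.26 in knockout ventricles against 12.37 in wild type ventricles. The part of any of these cell types in the ratios of Npr3, Corin or Mme was not tested.

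**Figure D4:**
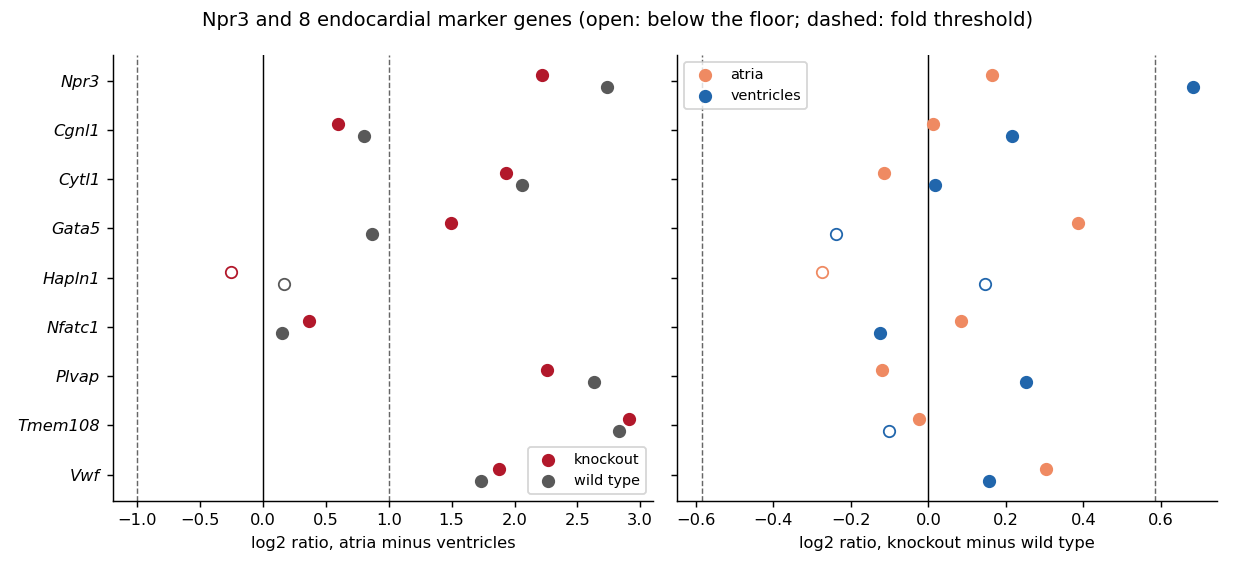
Log2 ratios of Npr3 and 8 endocardial marker genes, atria minus ventricles in each genotype (left) and knockout minus wild type in each chamber (right), 1 pooled array a group, with open points below the floor on both arrays and fold thresholds dashed. The markers Plvap, Tmem108, Cytl1 and Vwf share the high atrial ratio of Npr3, with Tmem108 below the floor in ventricles. None of the 5 tested in ventricles reaches the ventricular genotype ratio of Npr3, 0.68.

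Other marker lists are given for the ventricular pools because Nppb, Npr3, Pam, Nppa and Corin are all higher in atria. Of 8 atrial cardiomyocyte markers, 4 were above the floor in ventricles, with a median genotype ratio of −0.43 and 1, the calcium pump regulator gene Sln, past 1.5-fold lower, its knockout value below the floor. The summed intensity of the list was 9.58 in knockout ventricles and 9.89 in wild type ventricles. The part of atrial tissue in the ventricular ratios of Nppb, Npr3, Pam, Nppa and Corin was not tested. Epicardial markers had a ventricular median of 0.18 over 3 genes, macrophage markers −0.19 over 7, and smooth muscle and pericyte markers −0.06 over 8, with 0 past 1.5-fold in each. The 6 neuronal and Schwann cell markers with a probe set lay below the floor on all arrays.

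Some markers of skeletal muscle and fat moved more with genotype. Of the skeletal muscle markers, 4 of 5 tested in atria and 2 of 4 in ventricles passed 1.5-fold lower in knockouts, with medians of −0.66 and −1.48. Of all genes tested, 2.01% were lower in atria and 0.69% in ventricles, where 0.515% were higher. The fast myosin light chain gene Myl1 stood at 5.66 in knockout atria and 9.43 in wild type atria, and at 4.47 in knockout ventricles and 8.09 in wild type ventricles, with both knockout values below the floor. The skeletal calsequestrin gene Casq1 stood at 5.02 in knockout atria, also below the floor, 6.93 in wild type atria, 5.72 in knockout ventricles and 8.48 in wild type ventricles. The fast myosin genes Myh1 and Myh4 lay below the floor on all 4 arrays, and Ckm, which heart muscle also expresses, had ratios of −0.01 and 0.03. The summed intensity of the list was 11.26 in knockout atria against 11.66 in wild type atria, and 11.89 in knockout ventricles against 12.06 in wild type ventricles. Of the 6 fat cell markers with a probe set, 2 of 2 tested in atria were lower, Car3 and Retn, and the 1 tested in ventricles, Car3, was higher at 0.74. Their summed intensity was 7.60 in knockout atria against 8.53 in wild type atria, and 7.82 in knockout ventricles against 7.64 in wild type ventricles. Adipoq, Plin1, Lep and Cidec, which define fat cells, lay below the floor on all 4 arrays. The part of skeletal muscle or fat in the ratios of Nppb, Npr3, Corin and Mme was not tested.

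Genes beside the hormone pair on chromosome 4 were compared next. The 5 nearest genes with a probe set on each side held 9 above the floor, and 0 of them passed 1.5-fold in either chamber. In atria 8 of the 9 had positive genotype ratios, with a median of 0.27, and in ventricles the median was 0.11 (0.23 to 0.34 and 0.11 to 0.13 under the other scalings). Chchd2-ps, an annotated pseudogene whose probes may also read its parent gene, stood at 0.46 in atria and 0.41 in ventricles, and Fv1, a retrovirus restriction gene, at 0.22 and 0.52. The mitochondrial fusion gene Mfn2 stood at 0.32 and 0.16, the collagen-modifying enzyme gene Plod1 at 0.30 and 0.10, and Clcn6, a chloride transporter gene next to Nppa, at −0.09 and 0.08. In the atria the ratio of Nppb thus lay at the top of a run of mostly positive values that Nppa and Clcn6 interrupted. In ventricles the neighbours were mostly positive as well. There 2510039O18Rik, at −0.04, was the only negative one above the floor, and Fv1 lay above Nppb. The neighbours did not share the chamber pattern of the pair, with median atria minus ventricles ratios of −0.07 in knockouts, where the sign turned under 2 scalings, and −0.23 in wild types.

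**Figure D5:**
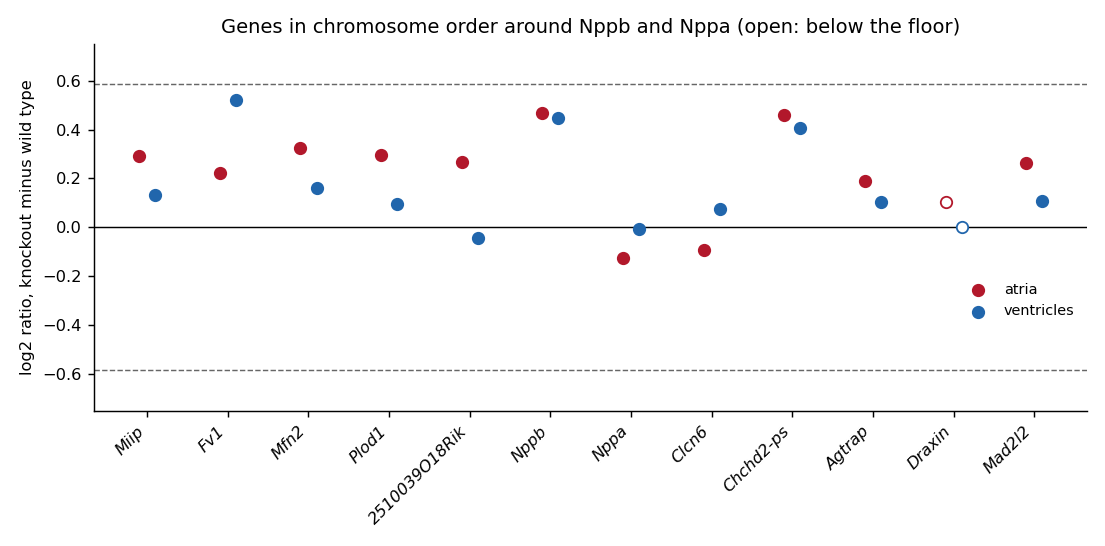
Log2 ratio of knockout minus wild type in atria and ventricles for Nppb, Nppa and the 5 nearest genes with a probe set on each side, in chromosome order and not to genomic scale, 1 pooled array a group. Open points lie below the floor and dashed lines mark 1.5-fold. Nppb lies at 0.47 and 0.45, while Nppa lies at −0.12 and −0.01.

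Downstream of the receptors, cGMP activates protein kinase G and is broken down by phosphodiesterases. Of 8 phosphodiesterase genes tested in ventricles, Pde3b, a cGMP-inhibited enzyme, passed 1.5-fold at 1.06, with 6.70 in knockout ventricles and 5.64 in wild type ventricles, and 0 were lower. The wild type value lay below the floor, so Pde3b was tested through its knockout array alone. In atria 0 of 8 passed, where Pde5a, a cGMP-specific enzyme, stood at −0.54 and the calmodulin-dependent Pde1a at −0.46. The list medians of 0.07 in atria and −0.01 in ventricles, the second turning sign under median centring, compare with −0.03 and 0.00 over all genes tested. Of the cGMP effectors, 0 of 8 passed in atria, where Vasp, an actin regulator phosphorylated by protein kinase G, stood at 0.29, and 0 of 10 in ventricles, where the cyclic nucleotide-gated channel gene Cnga3 stood at −0.57, its knockout value below the floor, and the cGMP exporter gene Abcc4 at 0.26. Among the other guanylyl cyclase genes and their peptides, 0 of 4 passed in atria and 0 of 3 in ventricles. Gucy1b1, the beta subunit of the nitric oxide receptor, stood at −0.49 in atria and −0.29 in ventricles.

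The pathway lists also held genes that differed by chamber the way Npr3 and Pam did. Sort1, a sorting receptor of the secretory route, was higher in atria by 1.99 in knockouts and 2.00 in wild types. The nitric oxide receptor gene Gucy1a1 was higher by 1.92 and 1.83, the protein kinase G substrate gene Mrvi1 (Irag1) by 2.43 and 2.00, and the cGMP phosphodiesterase gene Pde9a by 1.71 and 1.27, with its knockout ventricular value just below the floor. Dpp4, a peptidase that can trim BNP, was higher by 1.42 and 1.15, with both ventricular values below the floor. Rgs2, a G protein regulator activated by protein kinase G, passed 2-fold in wild types at 1.07 with 0.77 in knockouts. Pde3b passed in wild types at 1.11, against the ventricular value below the floor, with 0.40 in knockouts. By list, 1 of 9 processing genes, 1 of 9 effectors and 1 of 8 phosphodiesterases passed 2-fold higher in knockout atria. So did 1 of 4 genes of cyclases or their peptides and 1 of 6 granule genes, and 0 passed lower. Among all genes tested, 3.46% were higher in knockout atria and 2.85% lower, against 3.89% and 2.21% in wild types. In wild types 1 of 9 processing genes, 2 of 10 effectors, 2 of 8 phosphodiesterases, 1 of 3 cyclase genes and 1 of 5 granule genes were higher in atria, and 1 effector was lower. That effector, Cnga3, stood at −1.01, with its atrial value below the floor, and was not tested in knockouts.

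Of genes that process or package the hormones, 0 of 9 processing and clearance genes passed 1.5-fold in atria and 0 of 7 in ventricles. Pcsk6, the convertase that activates corin, stood at 7.52 in knockout atria, 7.76 in wild type atria, 7.85 in knockout ventricles and 8.08 in wild type ventricles, with genotype ratios of −0.24 and −0.23. Insulin-degrading enzyme, Ide, which also degrades ANP, stood at −0.28 in atria and 0.06 in ventricles. Of 6 secretory granule genes tested in each chamber 0 passed, with Cpe, a carboxypeptidase of hormone maturation, at −0.02 in atria and 0.21 in ventricles. Chromogranin genes Chga and Chgb lay below the floor on all 4 arrays.

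Among 19 transcription regulators of the hormone genes tested in each chamber, 0 passed 1.5-fold. Gata4 stood at 0.02 in atria and 0.00 in ventricles, Nkx2-5 at 0.18 and −0.06, Srf at 0.24 and −0.01, Tbx5 at −0.16 and −0.25, and Tead1, the factor of the M-CAT element, at 0.23 and 0.12. The largest ratios were those of Tbx2, a T-box repressor, in atria (0.41) and of Tbx5 in ventricles. Between chambers Tbx5 was higher in atria by 2.56 in knockouts and 2.47 in wild types, and the ventricular repressor gene Hey2 stood at −1.32 in knockouts, past 2-fold lower in atria, and at −0.97 in wild types, with both atrial values below the floor.

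Load and stress genes, with which Nppb is commonly grouped, held called members of both directions in ventricles. Of 11 tested there, 2 were higher, the slow myosin gene Myh7 at 0.99 and the matrix protein gene Ccn2 at 0.69, and 1 was lower, the skeletal actin gene Acta1 at −1.82. Of all genes tested in ventricles, 0.515% were higher and 0.69% lower. The list median was 0.23, against 0.00 over all genes tested. The ventricular ratio of Nppb lay between those of Ccn2 and Ankrd1, a stretch-responsive gene at 0.23. In atria Ccn2 alone of 11 tested passed, at 0.86, where 1.02% of all genes tested were higher and 2.01% lower. The list median there was 0.02, turning to −0.01 under median centring.

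Genes with the most similar profile were sought for the 6 members with a range of at least 1 log2 unit, by Euclidean distance of the 4 values after centring each gene on its mean, over 10325 other genes. With 4 arrays many genes come close by construction: 59 genes lay within 0.25 log2 units of Nppa, 99 of Corin, 36 of Pam, 28 of Nppb, 5 of Mme and 1 of Npr3. Values were centred and not scaled, so the distance grows with a gene's range, and Npr3 and Mme had the widest ranges, 2.90 and 1.88. The nearest to Nppa were Rabgap1l (0.05), Mmgt2 (0.06) and Maged1 (0.08), and to Corin the muscarinic receptor gene Chrm2 (0.05), Dapp1 (0.09) and Csdc2 (0.10). For Nppb they were Rpl3 (0.11), Ttc9 and Osbp2 (0.14 each), and for Pam they were Cd24a (0.10), Kcnj5 (0.12) and Gpc3 (0.13). Mme came closest to Fhl2 (0.09), Dipk2b (0.19) and Car4 (0.20). The nearest to Npr3 were Plagl1 at 0.19, and then the endocardial marker gene Plvap and Fcamr at 0.37 each.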

How the data were processed

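Total RNA from dissected chambers was pooled from 7 mice for each of 4 arrays, per the labels' protocols. Each probe set of the deposited table holds 1 log2 intensity an array, made by the authors with RMA and the affy package, per the submitters' processing notes, for which the sources used here give no version, array design or probe set definition. RMA corrects background, is meant to even out array distributions and compresses differences near background. The deposited values were not fully even, with an interquartile range of 2.97 on the knockout atria array against 3.18 to 3.21 elsewhere. Of 21212 probe sets, 18786 had 1 symbol in the platform annotation, 6 had several and 2420 had no entry. Symbols were updated through a RefSeq table of GRCm38.p6, 18775 by gene number, 6 by accession, with 5 kept, and the brightest probe set of a symbol was used, leaving 18781 genes.

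Ratios, calls and medians were computed in Python 3.11.15 with pandas 2.3.3, and the calling step was tested on simulated data. The fold thresholds, the floor, 3 scalings (median centring, quantile normalization, lowess centring) and other floors were tried as alternatives. The members and gene lists were chosen with earlier results of these data known, and the motifs after the promoter sequences were seen. All members were named. Pathway genes were named when past the fold, up to 4 a list and direction, or the 2 largest where none passed; other list members were named after their values were seen.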

Additional observations from a re-analysis of the deposited data

Results flagged for a closer look

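For 3 genes the sign of the knockout minus wild type ratio differed between chambers, and for 2 the sign of the atria minus ventricles ratio differed between genotypes. With 1 array a group these differences were not tested, and none of the values passed its fold threshold. Pam stood at −0.21 in atria and 0.15 in ventricles. Furin stood at 0.087 in atria and −0.17 in ventricles, and its chamber ratio was 0.25 in knockouts and −0.011 in wild types, the last turning sign under quantile normalization and lowess centring. Nppc stood at 0.22 in atria and −0.14 in ventricles, with a chamber ratio of 0.335 in knockouts and −0.023 in wild types, all from values below the floor.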

How the results depend on the processing

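No paired analysis was possible because each group had 1 array and the labels carry no replicate numbers. In the absence of replicates, a value was taken as unmoved when it shifted by less than 0.19 log2 units, the standard deviation of the ventricular genotype ratio over all genes tested. Under the 3 other scalings 116 of 120 ratios of the 10 genes did not move and kept their side of the fold, and 8 of 120 turned sign. The other 4 came to pass the fold: Corin in knockout atria against knockout ventricles (1.05 and 1.06 under quantile normalization and lowess centring) and Mme, below the floor, in knockout against wild type atria (−0.63 and −0.65). The number of genes past the fold was within 1.5 times of that reported under 23 of 24 alternatives. The exception was the ventricular genotype comparison, where 0 genes passed a 2-fold threshold, against the 1 gene, Npr3, that passed 1.5-fold; the stricter threshold is the cause. A floor at the 75th percentile left 3 genes past 2-fold between chambers, as Mme no longer qualified. A 1.5-fold threshold between chambers gave 6 genes in each genotype against 4, which was counted as within 1.5 times. In the atrial genotype comparison 0 genes passed, so a 2-fold threshold or a higher floor could only give 0. All 30 chamber differences of the knockout ratio stayed within that shift, with 3 signs turned, and medians of gene lists under other scalings were added after seeing the data. Genes below the floor were not tested, which leaves Nppc and atrial Mme without a genotype call, and whether the arrays resolve differences near the top of their range, where Nppa lies in atria, was not tested.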
